A study of Ovis aries with 12 samples.

Results

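The comparison described here sets endometrium against ovary or corpus luteum in sheep. Its members are all 12 of the 12 RNA sequencing libraries of the series, chosen by their titles: 6 titled T-L or T-H, hereafter T, and 6 titled Co-L or Co-H, hereafter Co. L marks low and H high fertility, and each of the 4 groups holds 3 libraries. All T libraries carry the tissue label endometrium, 5 Co libraries are labelled ovary and 1, Co-H 3, corpus luteum. The headers inside the files name the Co libraries CL and the T libraries Endo. The labels give no breed, age, cycle day or treatment for any group, and the series text speaks of pooled samples without saying how many animals a pool holds or which animals the 3 libraries of a group came from. That text also counts 6 control and 6 treatment samples without saying which these are. P-values therefore measure only the spread between these libraries, which may be technical. Any factor besides tissue that separated T from Co cannot be told apart from tissue.

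The endometrium is the inner lining of the uterus. It consists of luminal and glandular epithelium on a bed of stroma with vessels and immune cells, and it secretes the fluid that nourishes the early ruminant embryo. The corpus luteum forms from the ovulated follicle and is a dense, highly vascular gland of steroid-producing cells whose product, progesterone, prepares the endometrium for pregnancy. In ruminants the tissues form a loop, since the endometrium releases the prostaglandin that ends the life of the corpus luteum. In bulk tissue a lower level can come from fewer cells of a type or from less RNA per cell, and these cannot be told apart.

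The values are raw read counts for 24616 cattle gene identifiers. The files hold no gene names, and the sheep gene table used here matched 0 of the identifiers. For that reason the tissue labels were not checked against marker genes, no pathway is described, and at most 2 identifiers per direction are given for a comparison. Library totals ran from 9627378 to 13934369 counts in T and from 12665680 to 17852552 in Co. Levels are given in CPM, a gene's counts relative to the library's scaled total. The scaling was TMM, a trimmed mean over gene ratios that keeps a few very abundant genes from shifting all others. Of the 24616 genes, 14839 had enough counts to be tested.

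Gene expression differed between the tissues for most genes. With fertility level as a covariate, 9216 of the 14839 tested genes differed (62.1%), 4500 higher in T (30.3%) and 4716 lower in T (31.8%). Calls throughout rest on the quasi-likelihood test of edgeR at a Benjamini-Hochberg adjusted p below 0.05. The tissues thus had nearly equal numbers of higher genes under TMM scaling. This balance depended on the scaling: with each library scaled to its total alone, 7044 genes were higher and 2621 lower in T, 72.9% against 48.8% higher among the calls, and the median difference of all genes moved from −0.01 to 0.42 on the log2 scale. Relative log expression (RLE) and upper quartile scaling gave 50.7% and 54.7% higher. The tissues did not overlap at all, 6 libraries against 6, for 40.2% of the genes, with T above for 19.7% and Co above for 20.5%.

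**Figure D1:**
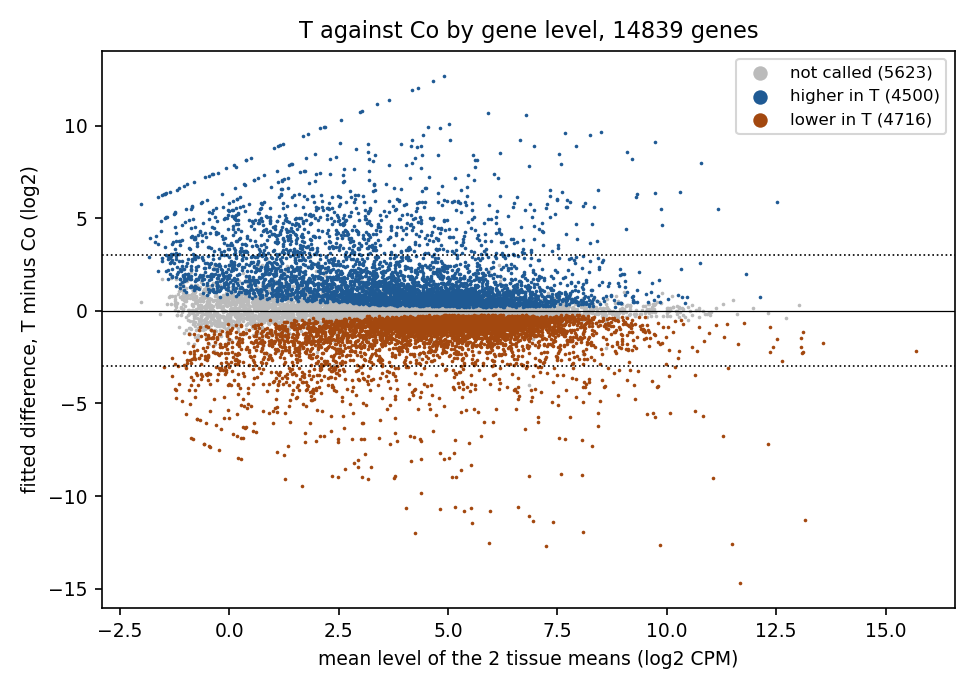
Each point is 1 of the 14839 tested genes. The horizontal axis is the log2 of the mean of the T and Co levels in CPM, the vertical axis the fitted log2 difference T minus Co, and dotted lines mark 8-fold. Called genes (4500 higher and 4716 lower in T) are spread over the whole range of levels, and the straight rows of points at the left edge are genes with few or no counts in one tissue.

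The large differences were not balanced. Among the called genes 896 were at least 8-fold higher in T and 490 at least 8-fold lower. At 64-fold or more the counts were 183 and 112. The excess on the T side of the 8-fold genes was present under every scaling tried. Of them, 64.6% were higher in T with TMM, 65.3% with RLE, 66.9% with upper quartile and 73.6% with the library total. All scalings tested the same genes, which entered by a cutoff on unscaled library totals, and the part of that cutoff was not tested. With TMM the excess lay below a mean of 100 CPM over the 12 libraries. From 100 to 1000 CPM 63 of these genes were higher and 69 lower in T, and at 1000 CPM or more 4 and 13. Fitted folds of genes with no counts in a tissue depend on a constant added by the fit, so folds were also computed with the lower tissue set to at least 3 counts, summed over its 6 libraries (the floor). With that floor 886 of the 896 and 483 of the 490 stayed past 8-fold, and 154 of the 183 and 94 of the 112 past 64-fold. The median difference of the 8-fold genes was 4.57 (4.52 with the floor) on the T side and −4.22 (−4.26 with the floor) on the Co side.

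Direction changed with the level of the gene. Among genes with a mean under 1 CPM over the 12 libraries, 314 of 462 called genes (68.0%) were higher in T. The share was 59.2% at 1 to 10 CPM, 45.2% at 10 to 100 CPM, 35% at 100 to 1000 CPM and 22.4% at 1000 CPM or more, where 13 called genes were higher and 45 lower in T. The fall of this share from the lowest to the highest level was seen under all 4 scalings, from 76.4% to 55.7% with the library total, but with that scaling the majority was higher in T in every class, and with upper quartile scaling the share was 52.3% at 10 to 100 CPM. Genes entered the test by a cutoff on unscaled library totals, met in at least 3 libraries. A gene under 1 CPM could thus enter through the tissue where it was high. Mean TMM factors were 1.16 in T and 0.87 in Co, so a T gene could enter at a lower scaled level. The part of this in the share of the lowest class was not tested.

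Among the called genes, those of small and moderate difference carried most of the counts. The 1765 genes that were 2 to 8-fold lower in T held 33.8% ± 1.38 of a Co library's counts but 13.3% ± 0.66 of a T library's (SD, n = 6 per tissue). The 1702 genes that were 2 to 8-fold higher in T held 10.3% ± 0.60 in T and 2.40% ± 0.19 in Co. At 64-fold or more, the 112 Co genes held 5.22% ± 1.08 of the Co counts and 0.0215% ± 0.0018 of the T counts, and the 183 T genes held 2.76% ± 0.62 of the T counts and 0.0153% ± 0.0096 of the Co counts. These classes were cut on the same contrast, so their shares describe it and test nothing.

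**Figure D2:**
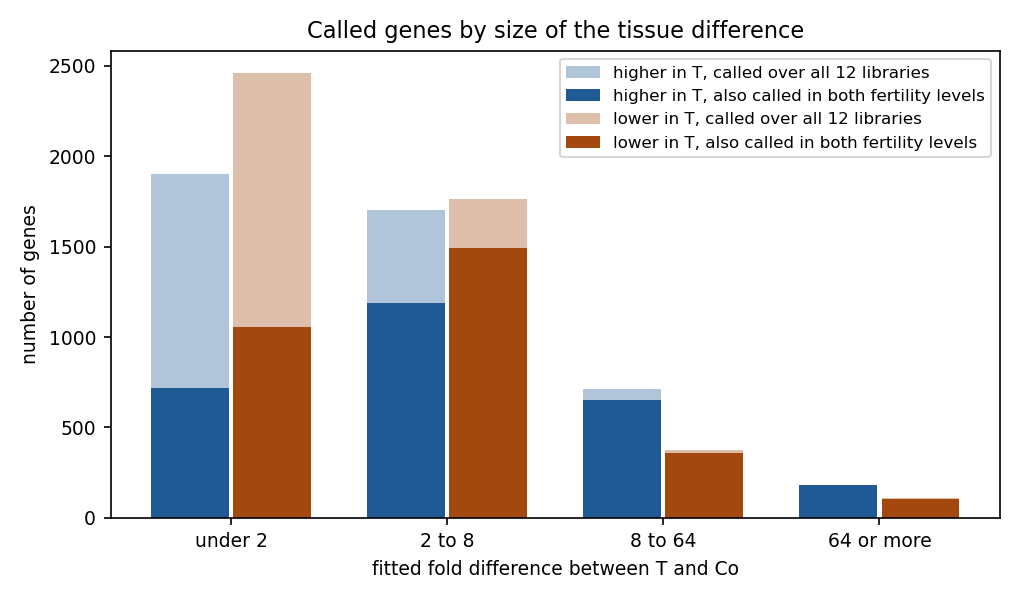
Bars give the number of called genes by the fitted fold difference between T and Co, blue for higher and brown for lower in T. The dark part counts genes also called in the same direction within low and within high fertility: 718 of 1902 and 1055 of 2461 genes under 2-fold, and 181 of 183 and 104 of 112 at 64-fold or more.

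Counts were concentrated in fewer genes in Co. The number of genes that together held 50% of a library's counts was lowest at 203, with a median of 292.5 and a highest value of 394, in the 6 Co libraries. In T the lowest value was 414, the median 631.5 and the highest 691. No T library overlapped the Co libraries, and the difference of the means, 607 ± 98.7 in T against 298 ± 78.6 in Co (SD, n = 6 each), passed an exact two-sided permutation test (p = 0.0022, Benjamini-Hochberg adjusted over 2 library measures p = 0.0043). Within low fertility the difference was 400 genes and within high fertility 218, both without overlap, where 3 against 3 libraries cannot go below p = 0.1 in an exact test. The second measure, the number of genes with at least 1 count, was 16976.5 ± 162 in T and 16588 ± 430 in Co and did not pass (exact two-sided permutation p = 0.058, adjusted p = 0.058). Within low fertility its difference was 514 genes without overlap (exact permutation p = 0.1, the smallest possible) and within high fertility 263 genes with overlap (exact permutation p = 0.9). With 1 library left out the difference over all was 258 to 489 genes.

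Most expressed genes were present in both tissues. A mean of at least 1 CPM was reached in both by 12719 genes, in T alone by 1039 and in Co alone by 715. Complete presence in one tissue with absence from the other was rare. Of all 24616 genes, 81 had counts in all 6 T libraries and none in Co, with a median level of 0.597 CPM and a highest of 60.2 CPM in T. In the reverse direction 54 genes had counts in all 6 Co libraries and none in T, with a median of 0.436 CPM and a highest of 37.9 CPM in Co. A count of 0 over 6 libraries allows a level of up to 0.0358 CPM in T and 0.0381 CPM in Co, which covers counting error only.

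The pool of counts shared by a pair of libraries is a description without a test. It is the sum over genes of the smaller of their shares of counts. A T and a Co library shared 60.6% to 67.9% of their counts, with a median of 64.5% over 36 pairs. Pairs within T shared 80.6% to 92.7% (median 90.8%) and pairs within Co 79.6% to 94.3% (median 86.4%), so the lowest pair within a tissue lay above the highest pair between tissues.

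A smaller set of genes was similar under TMM scaling, and the intervals were computed with that scaling alone. Scaling to the library total moved the median difference of all genes from −0.01 to 0.42 on the log2 scale, so the intervals depend on the scaling. For 2914 genes (19.6%) the 95% interval of the tissue difference lay wholly within 1.5-fold in either direction. Of these, 2668 were among the 9702 genes with a mean of at least 10 CPM (27.5%), and 23 were among the 108 genes at 1000 CPM or more. The interval and the test answer different questions, since 452 of the 2914 genes also passed the test with a small difference. Of the 5623 genes that were not called, 3161 (56.2%) had an interval reaching beyond 1.5-fold, so for them no similarity was shown.

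The named genes were those at least 8-fold apart, separated in all 12 libraries and called in both fertility levels, with the highest levels. ENSBTAG00000033345 was the most abundant Co gene of this kind. Its lowest Co library stood at 11019 CPM, the median at 17143 CPM and the highest at 25579 CPM, and in T the values ran from 4.31 over a median of 7.0 to 12.1 CPM. Every Co library was thus far above every T library. The log2 difference was −11.31 (SE 0.42, edgeR adjusted p = 1.8e-09), with −11.05 in low and −11.57 in high fertility.

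ENSBTAG00000014269 was the next Co gene. Its levels in Co ran from 7203 over a median of 10011 to 12401 CPM and in T from 61.0 over a median of 70.8 to 78.5 CPM. The T libraries lay within a narrow band and far below every Co library. The log2 difference was −7.16 (SE 0.20, edgeR adjusted p = 2.0e-10), with −7.00 in low and −7.32 in high fertility.

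The leading T genes varied far more between libraries. ENSBTAG00000031160 stood at 8441, 1837 and 2064 CPM in T-L 1 to 3, at 50558, 2644 and 3977 CPM in T-H 1 to 3, and between 41.2 and 443 CPM in Co. T-H 1 stood far above the other T libraries, and all T libraries lay above all Co libraries. The log2 difference was 5.87 (SE 1.24, edgeR adjusted p = 0.0013), and with 1 library left out from 4.64 (without T-H 1) to 6.51 (without T-L 2). It was 3.83 in low and 7.93 in high fertility, a difference between the levels that did not pass (log2 4.10, SE 1.58, edgeR adjusted p = 0.268).

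ENSBTAG00000048135 had the same library on top. It stood at 6256, 1962 and 832 CPM in T-L 1 to 3 and at 16760.5, 970 and 473 CPM in T-H 1 to 3. The Co libraries lay between 30.4 and 101 CPM except Co-L 2, at 287 CPM. The log2 difference was 5.52 (SE 1.07, edgeR adjusted p = 7.2e-04), and with 1 library left out from 4.19 (without T-H 1) to 6.498 (without Co-L 2).

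**Figure D3:**
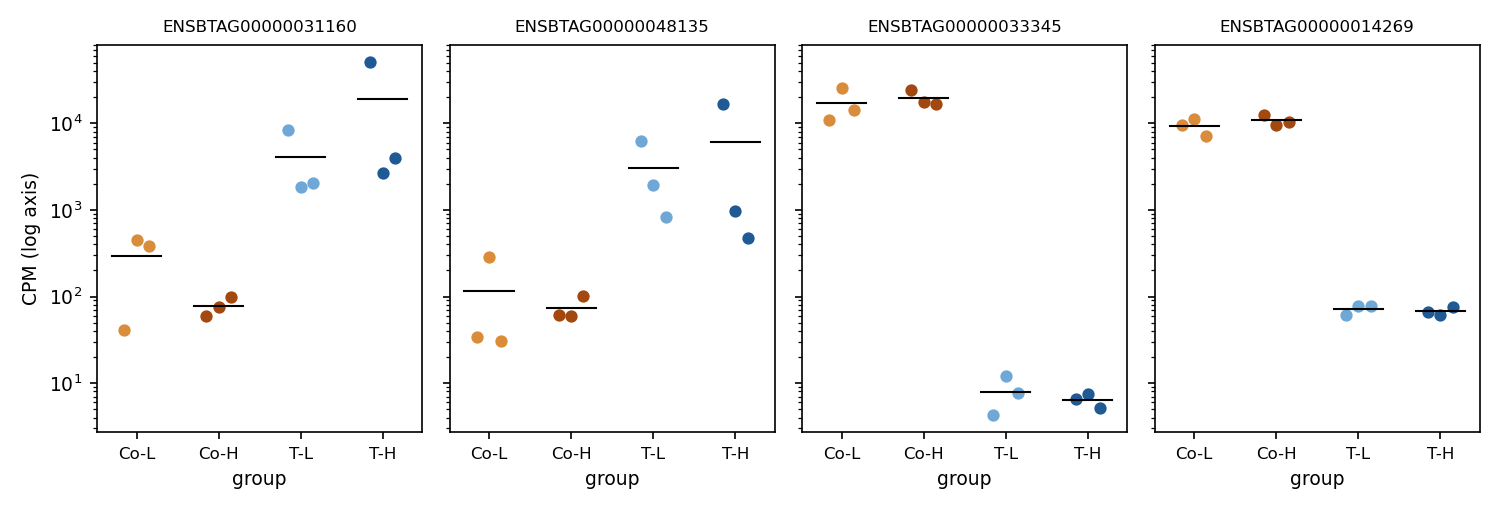
Points are the levels in CPM of single libraries on a log axis for the 4 genes named for T against Co, by group, and lines are group means (n = 3). The panels of ENSBTAG00000031160 and ENSBTAG00000048135 show T-H 1 above the other T libraries, and those of ENSBTAG00000033345 and ENSBTAG00000014269 show Co libraries close together and far above T.

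Whether the tissue difference held within each fertility level was asked next. In a model with 1 mean per group, 7668 genes differed between T-L and Co-L (51.7%), 3624 higher (24.4%) and 4044 lower (27.3%) in T, and 7933 between T-H and Co-H (53.5%), 3933 higher (26.5%) and 4000 lower (27%). With scaling to the library total the split was 6898 higher and 1849 lower in low fertility (78.9% higher among the calls against 47.3%) and 5194 higher and 2630 lower in high fertility (66.4% against 49.6%). These contrasts use no library in common. Called in both were 5763 genes, of which 5753 had the same direction, 2740 higher and 3013 lower in T, and 10 had opposite directions. The direction was the same for 80.8% of all tested genes. It was the same for 83.0% of the 1905 genes called only in low fertility and for 80.2% of the 2170 called only in high fertility. Among the 5001 genes called in neither level it was the same for 58.2%.

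Agreement between the levels was higher for genes of larger difference. Of the 9581 genes under 2-fold in low fertility, 73.4% had the same direction in high fertility. The share was 93.1% of 3952 genes at 2 to 8-fold, 97.8% of 1000 genes at 8 to 64-fold and 97.4% of 306 genes beyond. Across genes, which are not independent replicates, the log2 differences of the levels correlated with r = 0.858 (Pearson) and rho = 0.804 (Spearman). Within low fertility the tissues did not overlap for 61.4% of the genes, and within high fertility for 61.2%. For 44.7% this was so in both levels in the same direction, and for 0.425% in opposite directions.

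**Figure D4:**
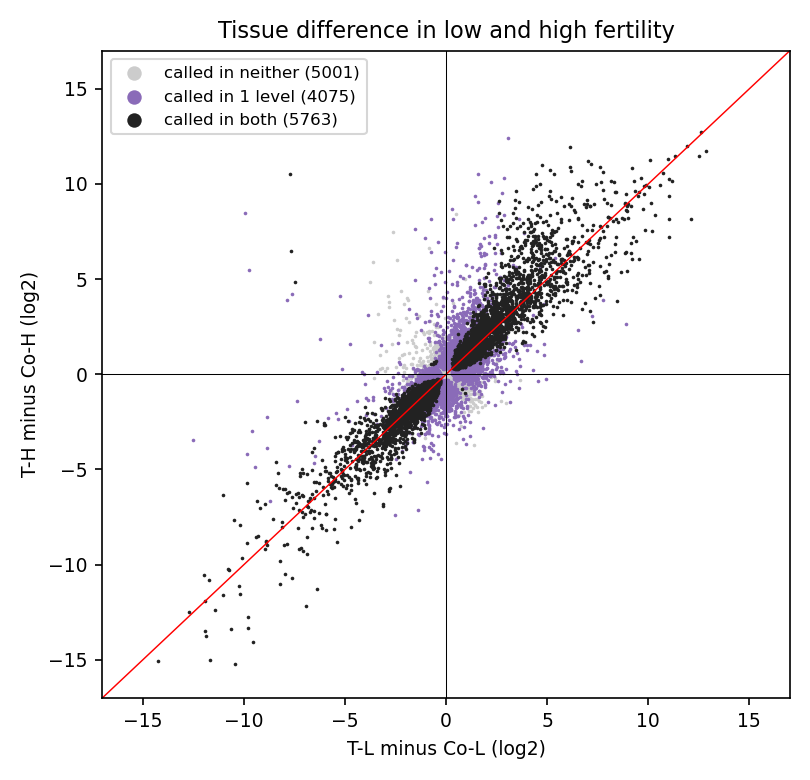
Each point is 1 of 14839 genes, with the fitted log2 difference T-L minus Co-L on the horizontal and T-H minus Co-H on the vertical axis; the red line marks equal values. The 5763 genes called in both levels (black) follow the line, with 10 of them in the quadrants of opposite sign.

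Each level was also fitted alone, so that neither libraries nor the estimate of the spread were shared. The low libraries alone gave 7152 calls of 14239 genes (50.2%), 26.1% higher and 24.1% lower in T. The high libraries alone gave 7308 of 14246 (51.3%), 27.4% higher and 23.9% lower. Called in both and in the same direction were 5094 genes, 71.2% of the low calls and 69.7% of the high calls, and 4 were called in opposite directions. Genes chosen in low fertility as at least 8-fold higher in T numbered 718. In high fertility 715 of them had the same sign and 703 (97.9%) were called higher. Of 364 genes chosen in low fertility as at least 8-fold lower in T, 363 had the same sign and 353 (97.0%) were called lower in high fertility.

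In the other direction the T genes came back smaller. The 305 genes chosen in high fertility as at least 64-fold higher in T had a median difference of 7.59 there and of 5.29 in low fertility (6.94 and 5.21 with the floor), and 265 (86.9%) were called in low fertility. Without Co-L 3 the median in low fertility was 7.14 over 313 such genes, of which 307 (98.1%) were called. With the floor it was 6.18 over the 305 genes. For the 82 genes at least 64-fold lower in T the medians were −8.27 in high and −7.64 in low fertility, and 81 were called in low fertility. The T-side difference of these genes in low fertility was thus larger without Co-L 3. No other library was left out of this reading. The part of choosing the genes by their size in high fertility was not tested.

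Some genes were called in a single level, and the following had the smallest p among those. ENSBTAG00000012938 stood at 73.8, 37.2 and 53.9 CPM in T-L 1 to 3 and at 18.6, 13.8 and 12.4 CPM in Co-L 1 to 3. In high fertility the T libraries lay between 28.2 and 33.3 CPM and overlapped the Co libraries, at 23.8 to 42.4 CPM. The log2 difference was 1.87 (SE 0.28, edgeR adjusted p = 2.2e-04) in low and −0.07 (SE 0.27, edgeR adjusted p = 0.852) in high fertility. ENSBTAG00000002470 stood at 9.83 to 14.5 CPM in T-L and 1.11 to 2.55 CPM in Co-L, and at 6.12 to 10.3 CPM in T-H and 2.33 to 4.99 CPM in Co-H. It was separated in both levels but called in low fertility alone, with log2 differences of 2.86 and 0.88 (edgeR adjusted p = 2.2e-04 and 0.077).

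In the downward direction ENSBTAG00000020705 stood at 20.9, 23.0 and 13.4 CPM in Co-L 1 to 3 and at 1.28 to 4.02 CPM in T-L. In Co-H it was at 4.76 to 7.69 CPM and in T-H at 2.55 to 3.92 CPM. The groups were separated in both levels, with log2 differences of −2.83 and −0.97 (edgeR adjusted p = 1.5e-04 and 0.0523). ENSBTAG00000015278 differed by −0.98 in low and −0.30 in high fertility (edgeR adjusted p = 1.5e-04 and 0.0804), at 43.6 to 52.2 CPM in Co-L and 23.1 to 25.8 CPM in T-L. In high fertility T-H 1, at 34.7 CPM, lay inside the Co-H range of 34.2 to 39.0 CPM.

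Among the genes called only in high fertility, ENSBTAG00000013533 stood at 217, 231 and 272 CPM in T-H 1 to 3 and at 113, 77.0 and 79.7 CPM in Co-H 1 to 3. In low fertility the T libraries, at 198 to 221 CPM, lay just above the Co libraries, at 143 to 197 CPM. The log2 difference was 1.42 (SE 0.18, edgeR adjusted p = 7.6e-05) in high and 0.35 (SE 0.18, edgeR adjusted p = 0.117) in low fertility. ENSBTAG00000002647 stood at 9.29 to 14.4 CPM in T-H and 1.49 to 2.92 CPM in Co-H, and its log2 differences were 2.33 in high and 0.55 in low fertility (edgeR adjusted p = 7.9e-05 and 0.123). In low fertility its T libraries, at 5.54 to 7.34 CPM, lay just above the Co libraries, at 3.92 to 5.48 CPM.

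ENSBTAG00000000257 had 188 counts over the Co-H libraries and 1 count over the T-H libraries. Their scaled ratio was 183 with a 95% exact counting interval of 32.5 to 7280, which covers counting error only. It stood at 2.985, 2.98 and 8.20 CPM in Co-H 1 to 3. In low fertility T-L, at 0.983 to 2.38 CPM, overlapped Co-L, at 1.66 to 5.73 CPM, and the gene was not called (edgeR adjusted p = 0.0689). ENSBTAG00000007315 stood at 46.2 to 64.7 CPM in Co-H and 22.9 to 28 CPM in T-H. The log2 difference there was −1.12, with an SE of 0.16 and an edgeR adjusted p = 1.3e-04. In low fertility T-L, at 30.7 to 32.1 CPM, lay within the Co-L range of 28.8 to 37.3 CPM (log2 difference −0.12, edgeR adjusted p = 0.540).

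A call in one level without the other does not show that the levels differ, and the difference itself was tested as an interaction. It passed for 0 of 14839 genes (0%; edgeR, smallest adjusted p = 0.257), with an unadjusted p under 0.05 for 2423 genes. With DESeq2 the count was 135, and with limma-voom and its quality weights 1675. Without Co-H 1 edgeR called 1237 genes, 241 with a greater and 996 with a smaller T minus Co value in high fertility, and it called 0 without each of the other 11 libraries. The median absolute difference between the levels was 0.38 on the log2 scale, against a median absolute tissue difference of 0.64.

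Of the 4 genes with the smallest interaction p per direction, 3 were called in the same direction in both levels. ENSBTAG00000014354 stood at 149 to 159 CPM in the low Co libraries, 72.4 to 84.0 CPM in the high ones and 48.6 to 57.0 CPM over all 6 T libraries, so it was higher in Co in both levels, by a log2 difference of −1.52 in low and −0.53 in high fertility. ENSBTAG00000008966 was higher in T in both levels, at 107 to 143 CPM in T-L against 31.8 to 36.9 CPM in Co-L and at 156 to 184 CPM in T-H against 14.8 to 21.3 CPM in Co-H. Its log2 differences were 1.89 and 3.16.

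ENSBTAG00000020141 was higher in Co in both levels. In low fertility it stood at 7.83 to 11.3 CPM in Co against 0.983 to 1.87 CPM in T, in high fertility at 12.3 to 21.3 CPM against 0.131 to 0.453 CPM, and its log2 differences were −2.84 and −6.01. ENSBTAG00000012377 was higher in T in low fertility, at 37.5 to 38.5 CPM against 9.79 to 15.5 CPM, with a log2 difference of 1.49. In high fertility T-H, at 27.3 to 32.5 CPM, lay within the Co-H range of 23.9 to 45.4 CPM. None of the 4 passed the interaction test in edgeR with all libraries (adjusted p = 0.257 for each). All 4 passed in edgeR without Co-H 1 (adjusted p = 0.0015 to 0.0108) and with limma-voom (adjusted p = 0.022 for each). With DESeq2 ENSBTAG00000014354 (adjusted p = 4.8e-05), ENSBTAG00000008966 and ENSBTAG00000012377 (adjusted p = 8.8e-04 for both) passed, and ENSBTAG00000020141 was given no adjusted p. These settings called 1237 of 15181, 1675 of 14839 and 135 of 14839 genes. The 4 genes were picked by the smallest interaction p in the same libraries, so their passing here is no independent check.

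Genes separated in opposite directions in the levels were few. In 43 genes (0.29%) Co lay above T in low fertility and T above Co in high fertility, with a median level of 83.3 CPM and median log2 differences of −0.44 and 0.41. In 20 genes (0.135%) T lay above Co in low fertility and Co above T in high fertility, with a median level of 9.07 CPM and medians of 0.37 and −0.62. Of the 43 genes 5 were called by edgeR in both levels, in opposite directions, and of the 20 genes 0. None of the 63 passed the interaction test (edgeR, smallest adjusted p = 0.257). The unadjusted edgeR p was under 0.05 for 39 and 20 of them, against 2423 of all 14839 genes. They were picked by opposite separation in these same libraries, so small unadjusted values follow from the choice and test nothing.

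Each library was then placed against genes chosen without it. For every library the tissue comparison was refitted on the other 11, and it was asked for how many called genes the library lay nearer on the log2 scale to the mean of its own tissue than to that of the other. Over genes at least 8-fold apart the share was 95.7% to 98.4% in the 6 T libraries and 96.5% to 98.2% in 5 Co libraries. Co-L 3 stood at 80.8%, or 1235 of 1528 genes. Over all called genes the shares were 89.3% to 94.6% in T. Co-L 3 again was lowest in Co, at 73.9%, with its 5 fellow libraries at 81.6% to 92.8%.

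The library labelled corpus luteum did not stand apart over the 8-fold genes. Co-H 3 lay nearer to Co for 97.5% of 1383 genes at least 8-fold apart, inside the range of the 4 ovary-labelled libraries other than Co-L 3. Over all called genes, at 81.6%, it was the lowest Co library after Co-L 3. It is also the only Co library for which the submitters' notes name the build bosTau8, as they do for all 6 T libraries. With only these 7 libraries in the fit, where the lone Co library is assumed to vary like the T libraries, 6175 genes were called. Of the 1358 genes at least 8-fold apart over all libraries and tested here, 1205 were called again in the same direction. These 7 libraries were also in the fit that chose the genes, so this is a description and no independent check. The log2 difference of ENSBTAG00000031160 was 7.60 (SE 2.56, edgeR adjusted p = 0.0502) and that of ENSBTAG00000048135 was 5.92 (SE 2.68, edgeR adjusted p = 0.117), so both were at least as large as over all libraries but were not called with the larger SE.

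Co-L 3 stood apart mainly in the genes of the other tissue. If the mean of the other tissue is set to 0 and that of its own tissue to 1, Co-L 3 had a median position of 0.929 over the 8-fold Co genes and of 0.783 over the 8-fold T genes. The other Co libraries lay between 0.986 and 1.03 on the Co genes and between 0.974 and 1.11 on the T genes, and the T libraries between 0.963 and 1.02 on T genes. Co-L 3 thus lay further toward T on the 8-fold T genes than any other library of Co. Whether T tissue, another cell type or a different state of the organ was sampled in it was not tested, since markers cannot be named here.

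T-H 1 also stood apart from its tissue on some measures. It lay nearer to T for 95.7% of 1384 genes at least 8-fold apart. Its counts were more concentrated, with 414 genes holding 50% of them against 614 to 691 in the other T libraries, and it shared on average 81.5% of its counts with the other T libraries, which shared 88.8% to 89.5%. A fit without Co-L 3 and T-H 1, added once the data had been seen, called 9327 genes between the tissues.

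**Figure D5:**
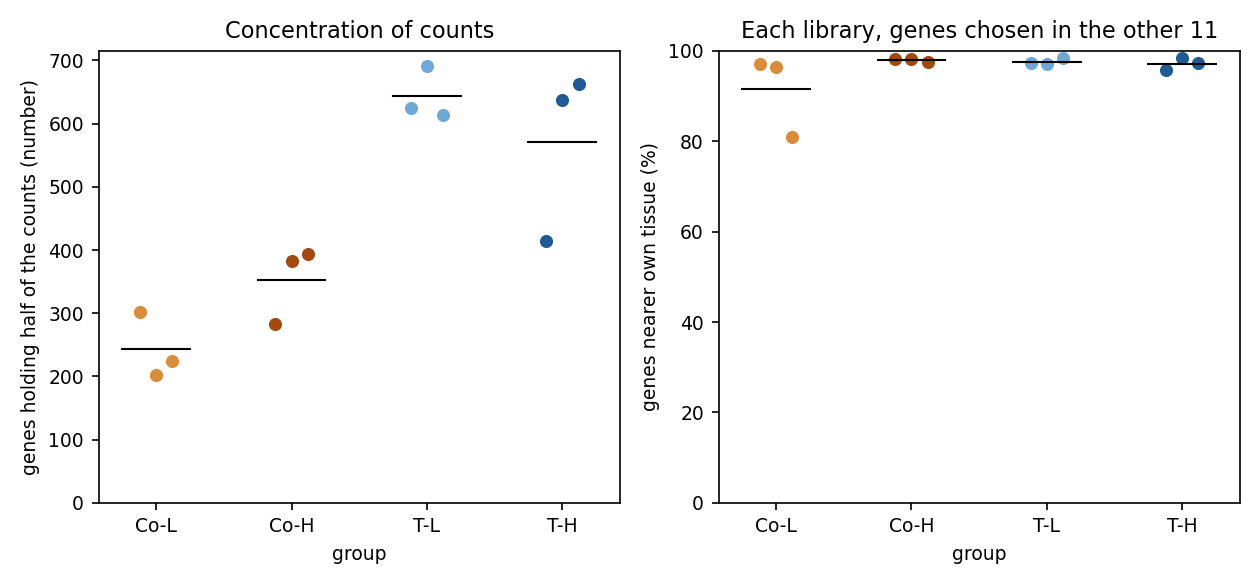
Left, the number of genes that hold 50% of a library's counts; right, the percentage of genes at least 8-fold apart in the other 11 libraries for which a library lies nearer to its own tissue. Points are libraries by group and lines are group means (n = 3); T lies above Co on the left, and Co-L 3 at 80.8% is the low point on the right.

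The spread between libraries of a group was larger in Co, with a median SD of 0.31 on the log2 CPM scale against 0.23 in T, and it was larger in Co for 67.5% of the genes. With the library that stood apart in each tissue left out, Co-L 3 and T-H 1, the median SD was 0.27 in Co and 0.21 in T and the share 63.6%. Without Co-L 3 alone the share was 58.7%, without Co-H 1 alone 56.8% and without T-H 1 alone 72.1%. Without both Co-L 3 and Co-H 1, which takes wide libraries from Co only, it was 40.4%.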

How the data were processed

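The authors deposited raw read counts per cattle gene identifier, 1 file per library, per the file headers. Per the submitters' processing notes, Bowtie 0.12.2 was used for all libraries. These notes name the cattle build bosTau8 for 7 of the sheep libraries, and none for the 5 with the ovary label. For counting tool, annotation, strand and filters nothing is given in the sources used here, so overlapping or near-identical genes cannot be told apart. RNA was extracted with Trizol from frozen tissue, and libraries came from a TruSeq RNA kit, per the labels' protocols. One blank line was skipped, and in 1 file the first gene was read from the header line.

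The count tables were fitted with edgeR 4.0.16 under R 4.3.3 (filterByExpr at a minimum count of 10, TMM, quasi-likelihood test, adjusted p below 0.05 by Benjamini-Hochberg), with fertility as covariate over all 12 libraries, or with 1 mean per group for the contrasts within a fertility level and the interaction. The SE is the log2 difference divided by the root of the F statistic. Positions and spread used log2 CPM with a prior count of 2. The fits were also run on simulated data in which few genes were changed in the contrast tested, none of low mean count. T and Co differed in most genes, so that run does not check the tissue calls. Alternatives were other scalings, DESeq2 1.42.0, limma 3.58.1 voom, other count filters, a replicate block, glmTreat, fits within a level and leaving out each library.

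Named genes followed a rule: without gene names, 2 per direction, for T against Co by level among genes at least 8-fold apart, separated and called in both levels, and otherwise by smallest p. The 23 gene lists and the cell type markers drawn up for this comparison could not be used without names. Members, lists and rules were chosen with earlier results of these data known. No pair of libraries in a group agreed within counting noise (chi-square per degree of freedom 17.97 or more), so none was treated as a library deposited more than once; this does not show that they are separate biological replicates.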

Additional observations from a re-analysis of the deposited data

Results flagged for a closer look

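In 10 of 60 checks on groups of 6 libraries, the gap between an extreme library and its neighbour exceeded 0.625 of the range. Chance gives about 1 in 20 for independent, normally distributed values. The checks overlap, mix low and high fertility and use CPM without a log for genes, so they cannot be read against that rate. Of the 10 checks, 7 concerned T-H 1, 2 Co-L 3 and 1 Co-L 2. ENSBTAG00000031160 stood at 50558 CPM in T-H 1, with the other T libraries between 1837 and 8441 CPM. ENSBTAG00000048135 stood at 16760.5 CPM in T-H 1 against 473 to 6256 CPM, and ENSBTAG00000015278 at 34.7 CPM against 23.1 to 26.8 CPM. The TMM factor of T-H 1 was 1.03 against 1.16 to 1.23, and 414 genes held 50% of its counts against 614 to 691. Its mean shared pool was 81.5% with T libraries against 88.8% to 89.5%, and 61.6% with Co libraries against 64.6% to 66.1%.

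In Co, Co-L 3 shared on average 82.9% of its counts with the other Co libraries, which shared 87.1% to 88.7%, and lay nearer to Co for 80.8% of the genes at least 8-fold apart, against 96.5% to 98.2%. ENSBTAG00000048135 stood at 287 CPM in Co-L 2, against 30.4 to 101 CPM in the other Co libraries.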

How the results depend on the processing

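The number of genes called for T against Co, T-L against Co-L and T-H against Co-H stayed within 1.5 times the reported count under each scaling, filter and test tried except glmTreat against a minimum of 2-fold, which called 3278, 2581 and 3020 genes. Which genes were called was less stable. With scaling to the library total, 7121 of the 9216, 5473 of the 7668 and 6563 of the 7933 calls recurred in the same direction. For T against Co, 9045 recurred with RLE and 8694 with upper quartile scaling. Leaving out 1 library gave 8850 to 9599 calls for T against Co, 6453 to 8332 for T-L against Co-L and 6745 to 8409 for T-H against Co-H. The interaction count of 0 became 135 with DESeq2 and 1675 with limma-voom, and ran from 0 to 1237 with 1 library left out, the highest without Co-H 1. The cause was not tested. The share of genes with the same direction in low and high fertility was 77.3% (without Co-H 1) to 82.8% (without Co-L 3) with 1 library left out, and 82.4% with separate fits and Co-L 3 out of the low fit.

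The replicate numbers were not taken as pairs, since the deviations of same-numbered T and Co libraries did not all correlate above 0.1. In low fertility the correlations were 0.072, 0.092 and 0.138 and each Co library correlated best with its own number. In high fertility they were 0.0048, −0.085 and −0.049 and none did. Over both levels this was so for 3 of 6 Co libraries, too few to show or exclude pairs. With the replicate block 8767, 7212 and 7343 genes were called for T against Co, in low and in high fertility, 0 for the interaction, and 81.5% had the same direction. In the contrast each gene was named for, no named gene reversed sign under the alternatives for which its value was kept. DESeq2 gave ENSBTAG00000031160 and ENSBTAG00000020141 no adjusted p, so neither was called by it and their sign there was not checked. The other printed differences of the named genes were not recomputed. Against a minimum of 2-fold ENSBTAG00000015278 (adjusted p = 0.804) and ENSBTAG00000007315 (adjusted p = 0.285) were not called by edgeR. The number of genes with at least 1 count differed with p = 0.017 and 0.028 (exact permutation) without Co-H 2 and Co-H 3. Without a count filter 19693 genes were tested and 9653 called. Genes with few counts limit the folds: 126 of the 896 genes at least 8-fold higher in T had at most 3 counts over Co.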

Other observations

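A group of 12 genes, picked after the data were seen, was past 8-fold in opposite directions in the fertility levels, lower in T in low and higher in T in high fertility. Co-L 3 was the highest Co library for all 12 and the highest of all libraries for 11, at 1.27 to 1363 CPM (median 48.2 CPM), while the other Co libraries reached at most 9.58 CPM and stayed under 1 CPM for 9 of the genes. Of the T libraries, T-H 1 or T-H 2 was highest for 10 of the genes, and T-H 3 was the lowest T-H library for 9. The calls were 3 in both levels, 6 in low fertility alone and 3 in neither, and none passed the interaction test (edgeR, smallest adjusted p = 0.257). Without Co-L 3, 2 of the 12 still passed 8-fold in opposite directions.

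The 8-fold calls within a level lost few genes with any 1 of its 6 libraries left out. Of the 804 genes at least 8-fold higher in T in low fertility, 774 to 790 were still called, and of the 481 at least 8-fold lower, 449 to 471. In high fertility 1009 to 1054 of 1076 and 511 to 522 of 525 were still called. A gene counted as still called in the same direction without having to stay past 8-fold. The genes were chosen with the left-out library in the fit, so this is a description and no independent check.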
